A study of Homo sapiens with 2 samples.

Results

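EXT1 (ENSG00000182197.11) encodes a glycosyltransferase that, as a complex with EXT2 in the Golgi, polymerises the sugar chain of heparan sulfate. TARBP2-bound regions of EXT1 RNA were taken as all minus-strand regions of the list on chromosome 8 that overlapped the gene from 118806729 to 119124058 on hg19. EXT1 is transcribed from the minus strand. There were 55 such regions among 23412 in the whole list and among 612 on the minus strand of chromosome 8. The locus was chosen from the number of regions measured in this list, so that number is a description of the choice, and no test is attached to it.

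The cells were MDA-LM2, a derivative of the human breast cancer line MDA-MB-231 selected for metastasis to the lung. They carried a transiently transfected, myc-tagged TARBP2 vector and were UV cross-linked 48 hours later. RNA bound to the tagged protein was recovered with an antibody to myc and sequenced by HITS-CLIP, as 1 group of 2 replicates. The processed values are 1 list of regions for both replicates together, so each value below stands without a replicate error and nothing can be said of how it varies between cultures. Neither an untransfected control nor total RNA was analysed here, so more TARBP2 per EXT1 transcript and more EXT1 RNA in the cell cannot be told apart.

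TARBP2 binds double-stranded stretches of RNA and is best known as a partner of Dicer in microRNA production. It also binds structured elements in messenger RNAs and introns of nuclear transcripts. Heparan sulfate chains are attached to core proteins such as syndecans and glypicans on the cell surface and perlecan in the matrix, where they hold growth factors. Loss of EXT1 function causes hereditary multiple exostoses. The other enzymes and core proteins of heparan sulfate synthesis were not analysed here, since gene positions on hg19 were not used. No sequence of the locus is shown.

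The 55 EXT1 regions were spread over 275 kb of the 317 kb span, and none crossed an edge of it. Together they covered 31.1 kb, or 9.81% of the span, at 1.73 regions per 10 kb. The region nearest the 5′ end lay 7.69 kb inside the gene, and the region nearest the 3′ end 35.0 kb inside it. The locus stood alone on its strand. The next minus-strand region beyond the 5′ end was 235 kb away (119359012 to 119359229, 218 nt), and the next beyond the 3′ end was 289 kb away (118517411 to 118517654, 244 nt). A flank as long as the gene held 2 minus-strand regions on the 5′ side and 1 on the 3′ side.

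On the plus strand the span held 0 regions. Beside 55 on the minus strand, a count of 0 allows a plus-strand number of up to 5.45% of the minus-strand number (3 counts, counting error only). Both flanks also held 0. The nearest plus-strand regions were 865 kb beyond the 5′ end (119988778 to 119989027, 250 nt) and 491 kb beyond the 3′ end (118315916 to 118316139, 224 nt). EXT1 regions were taken from the minus strand by rule, so the result is only that the span held no listed region on the other strand.

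**Figure D1:**
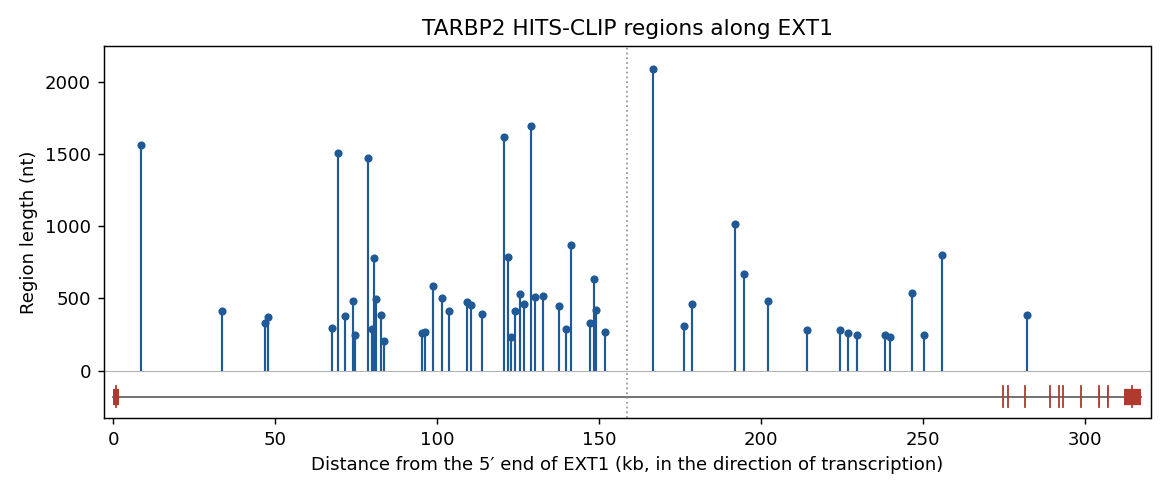
The 55 regions of EXT1, each drawn as a stem at its distance from the 5′ end of the gene (kb, horizontal axis) with its length (nt, vertical axis). The red blocks below are the 11 exons of the full-length transcript at their own distances in GENCODE 29, the dotted line marks the midpoint of the span, and 54 stems fall between exon 1 and exon 2.

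The exon layout came from GENCODE 29, whose coordinates are on GRCh38. It was used only as distances from the gene's own 5′ end, and no coordinate was converted. The gene is 317364 nt long there, 34 nt more than the hg19 span, so distances may differ between the builds by that much or more. The full-length protein-coding transcript has 11 exons with 8.27 kb of sequence in all. Intron 1, from 1.77 to 274.7 kb, has 273 kb and takes up 86.0% of the span. The 9 other introns sum to 36.2 kb, and the last exon, with 5.41 kb, holds the end of the coding sequence and the 3′ untranslated region.

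By these distances, 54 of the 55 regions (98.2%, 95% exact Clopper-Pearson interval 90.3 to 100%) lay within intron 1. They covered 11.3% of it at 1.98 per 10 kb. The remaining region, of 384 nt at 281.9 kb (118841729 to 118842112), fell within intron 4, 323 nt from the nearest exon. All other regions were at least 5918 nt from an exon. The 42.7 kb after intron 1, or 13.4% of the span, thus held 1 region (0.234 per 10 kb). None of the 55 overlapped an exon of the 3 annotated transcripts by distance, and none lay in the first exon, in the last exon or near the 3′ end. The exons of the full-length transcript sum to 8.27 kb of the 317 kb span. Few regions would fall there under an even spread, so the count of 0 is not read as avoidance of exons. The intervals here and below treat regions as independent and cover counting error only, and neighbouring regions may come from 1 stretch of bound RNA.

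The regions were not even along the gene. The span was divided at its midpoint, 159 kb from the 5′ end. The 5′ side held 39 regions (70.9%, 57.1 to 82.4%) and the 3′ side 16 (29.1%, 17.6 to 42.9%). Covered bases divided in the same way, with 22.6 kb on the 5′ side (14.2% of its bases) and 8.55 kb on the 3′ side (5.39%). When intron 1 alone was divided at its own midpoint, its 5′ side held 33 of 54 regions (61.1%, 46.9 to 74.1%) covering 14.5% and its 3′ side 21 covering 8.05%, and the interval of the share of regions included 50%. All 18 gaps of at most 1 kb lay within the 5′ side and 0 within the 3′ side. Counting close regions once could therefore lower the number on the 5′ side of the span only. With regions at most 1 kb apart counted once, the 55 became 37 groups, of which 21 (56.8%, 39.5 to 72.9%) were on the 5′ side and 16 on the 3′ side. Within intron 1, counted in this way after the data had been seen, 18 of 36 groups (50%, 32.9 to 67.1%) lay on each side of its midpoint. Covered bases are not changed by this way of counting, so it does not show how far closeness accounts for the excess.

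The excess also did not begin at the 5′ end. Of 10 equal bins of the span, bin 1 held 1 region and bin 2 held 3. Bins 3, 4 and 5 held 11, 14 and 10, and covered 20.6%, 23.1% and 19.1% of their bases. The 5 bins on the 3′ side held 3, 4, 7, 2 and 0 regions, and each covered less than any of these. The stretch from 63.5 to 159 kb, singled out after these values were seen, held 35 regions (63.6%, 49.6 to 76.2%) and 64.0% of the covered bases. The first 63.5 kb of the gene held 4 regions and 8.59% of the covered bases. The first 106 kb, which are 33.3% of the span, held 36.4% of the regions.

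**Figure D2:**
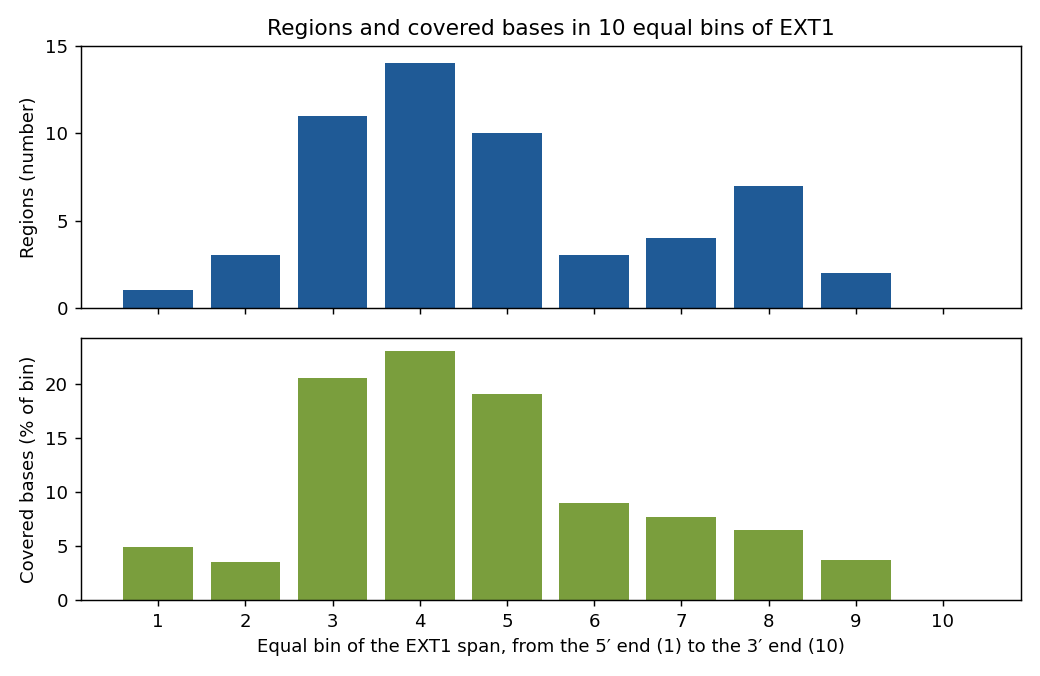
Number of EXT1 regions (upper bars) and percentage of bases they cover (lower bars) in 10 equal bins of the span, numbered from the 5′ end. Bins 3, 4 and 5 stand highest with 11, 14 and 10 regions, and bin 10 at the 3′ end has 0.

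Walking from the 5′ end, joining regions at most 10 kb apart gave 10 groups, 6 of them with at least 2 regions and 4 with 1. The 6 larger groups held 51 of the 55 regions. The first region, alone at 7.69 kb (119114812 to 119116372), was 1561 nt long and was followed by a gap of 24061 nt. Next came a lone region of 415 nt at 33.3 kb (119090336 to 119090750). A pair of 330 and 369 nt followed at 46.7 to 48.1 kb (119075993 to 119077311), 620 nt apart. These 4 regions are all that lay in the first 63.5 kb, and the longest of them was the one nearest the 5′ end.

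Of the groups with at least 3 regions, that with the highest cover lay from 67.3 to 83.6 kb (119040487 to 119056763). Its 11 regions covered 40.1% of 16.3 kb. The first 5 were 297, 1506, 377, 481 and 249 nt long. The other 6 formed a run of 5.54 kb in which every gap was below 1 kb (119040487 to 119046028), with lengths of 1475, 291, 777, 493, 383 and 202 nt. Regions covered 65.3% of that run, and its first 3 gaps were 151, 179 and 105 nt. The gap of 105 nt was the smallest in the gene. It separated the region of 777 nt (119043156 to 119043932) from that of 493 nt (119042558 to 119043050).

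The group with the most regions lay from 95.3 to 152 kb (118971999 to 119028741), with 24 regions covering 23.6% of 56.7 kb. The shortest was 235 nt, the longest 1692 nt and the median 459.5 nt. The first 8, down to 113.9 kb, were 262 to 584 nt long and included 2 pairs less than 1 kb apart. A run of 4 followed from 120 to 124 kb (118999862 to 119004160) and began with a region of 1619 nt (119002542 to 119004160), then regions of 786, 235 and 416 nt, so that 71.1% of its 4.30 kb was covered. A pair of 1692 nt (118994144 to 118995835) and 511 nt (118993525 to 118994035) was separated by 108 nt and covered 95.3% of 2.31 kb. Towards the 3′ end of the group a run of 327, 637 and 417 nt lay at 147 to 149 kb, and the group closed with a region of 269 nt. Long regions and short gaps therefore occurred side by side in this part of intron 1.

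After a gap of 13565 nt came the longest EXT1 region, 2090 nt at 165.6 to 167.7 kb (118956344 to 118958433). It stood 8432 nt from its next neighbour, in a group with regions of 307 and 460 nt. A further group of 3 regions lay from 192 to 202 kb (118921608 to 118932490), with lengths of 1015, 671 and 483 nt. A lone region of 282 nt was found at 214 kb (118909724 to 118910005).

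The last group in intron 1, from 224 to 256 kb (118867792 to 118899694), was sparser than the 2 large groups upstream. Its 8 regions covered 8.95% of 31.9 kb, with no gap below 1 kb, and their median length was 254 nt. In order they were 279, 259, 249, 249, 232, 536, 249 and 803 nt long. The widest gap of the locus, 25679 nt, then led past exons 2 to 4 to the single region in intron 4. Whether the lower cover in this stretch of the intron goes with less bound RNA or with less signal passing the authors' calling was not tested, as the list gives no height.

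The median EXT1 region was 417 nt long (369 to 493 nt, binomial interval of the median), the shortest 202 nt and the longest 2090 nt, with quartiles of 291 and 560 nt. The median was 448 nt on the 5′ side and 345.5 nt on the 3′ side. There were 7 regions longer than 1000 nt (12.7%, 5.27 to 24.5%), against 2.36% of minus-strand regions elsewhere. No such share is given for the dense windows below, so this difference is not read as particular to EXT1. The 7 regions held 35.2% of the covered bases, and 14 regions held more than 50% of the covered bases. Of the 7, the 5′ side held 5 and the 3′ side 2. The length of 249 nt was the most common of the whole list, with 27.2% of minus-strand regions elsewhere but 8.21% of plus-strand regions. It was found for 4 EXT1 regions (7.27%, 2.02 to 17.6%). Of these 4, 3 lay in the sparse group of 224 to 256 kb and 1 at 74.4 kb. The median length of minus-strand regions elsewhere was 251 nt.

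The 54 gaps between neighbouring EXT1 regions had a median of 1.97 kb and extremes of 105 and 25679 nt. Of these, 18 (33.3%, 21.1 to 47.5%) were at most 1 kb, 27 were between 1 and 10 kb and 9 were longer than 10 kb. All 18 short gaps lay among the 38 within the 5′ side, where the median gap was 1.12 kb. The 15 gaps within the 3′ side included 0 of at most 1 kb, and their median was 6.30 kb. The remaining gap, of 13565 nt, spanned the midpoint. Between neighbouring minus-strand regions elsewhere the median gap was 41.5 kb and 11.8% of gaps were at most 1 kb. Short gaps within EXT1 are in part a result of its choice as a dense locus.

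**Figure D3:**
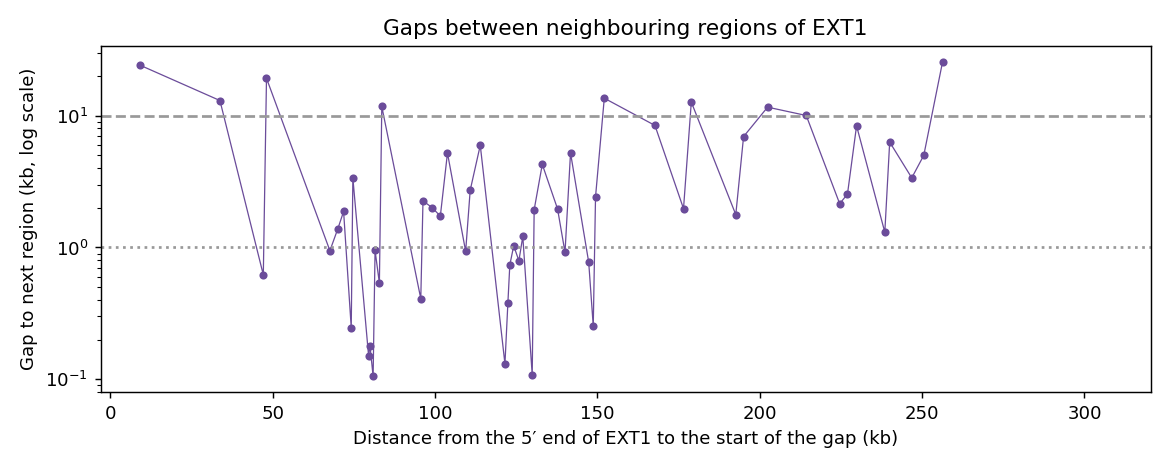
Gap from each EXT1 region to the next in the 3′ direction (kb, log scale), plotted at the distance from the 5′ end where the gap starts, with lines at 1 kb (dotted) and 10 kb (dashed). All 18 gaps of at most 1 kb lie on the 5′ side of the midpoint, and the smallest gap on the 3′ side is 1305 nt.

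To place these values, chromosomes 1 to 22 and X were tiled into 9554 minus-strand windows of the same length that did not touch EXT1. The median window held 0 regions, and the median of the 4729 that held any was 2. The 99th percentile was 15. The share of windows with at least as many regions as EXT1 was 0.0105%, which is 1 window, on chromosome 1 from 1586651 to 1903980 with 61 regions. EXT1 thus ranked 2, and it ranked 1 when the windows were shifted to begin at the middle of the former ones. The EXT1 window was set on the gene, whereas the tiles can cut a gene in pieces, and the rank of a locus picked for its number is no independent evidence. On chromosome 8 the fullest of 459 other windows held 26.

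**Figure D4:**
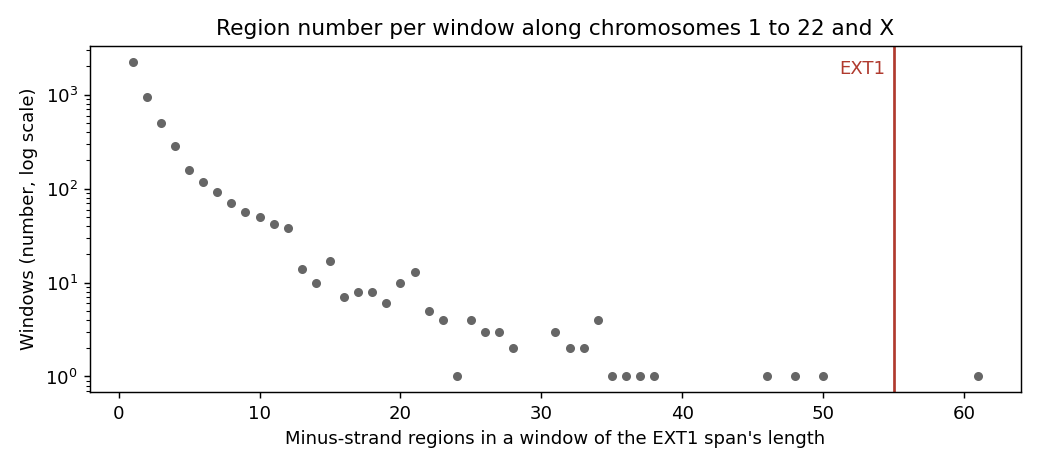
Number of windows (log scale) by the minus-strand regions they hold, for windows of the EXT1 span's length with at least 1 region. The red line marks the 55 regions of EXT1, and 1 window, with 61, lies to its right.

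Dense windows give a closer comparison than the whole list. There were 64 windows with at least 20 regions. Their median covered share was 3.76%, and 2 of them reached the 9.81% of EXT1. Covered share rises with the number of regions, for which EXT1 was chosen, so this difference in part restates the choice. In region length EXT1 lay near the middle of them. Their median lengths had a median of 402.75 nt, and 27 of 64 were at or above the 417 nt of EXT1. The share of regions with 249 nt had a median of 10.0%, and 16 of 64 windows were at or below EXT1. Short gaps were also usual there, with a median of 36.4% of gaps at most 1 kb and 40 of 64 windows at or above EXT1. The absence of regions on the other strand was less common. Of the 64 windows, 8 held 0 plus-strand regions, the median was 2.5 and the highest number was 33. The EXT1 window was cut to 1 gene, whereas the tiles were placed without regard to genes and may hold genes of both strands. How far this placement accounts for the difference was not tested. These are counts of windows, given without a test.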

How the data were processed

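HITS-CLIP of myc-tagged TARBP2 in MDA-LM2 cells was read from 1 list for the 2 replicates. Per the submitters' processing notes, the authors used Bowtie and the build hg19. How regions were called and filtered, and how reads from repeats were handled, is not stated there; each step can change the number and length of regions. The deposited score is 1 for every region, so depth and precision per sample are unknown. The deposited coordinates (0-based starts) are printed 1-based.

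EXT1 regions were those overlapping the gene span on the minus strand. Distances are from the 5′ end of the gene to the nearer end of a region, and regions were assigned to parts of the span by their midpoints. Groups joined regions at most 10 kb apart, or 1 kb where stated. Shares have 95% exact Clopper-Pearson intervals, and a count of 0 has a limit of 3 counts. Windows were counted by region midpoints. The rule for named items was EXT1 alone, with its longest regions, end regions, smallest and widest gaps and densest groups. A planned list of other heparan sulfate genes was not analysed. The locus, lists and tests were chosen with earlier results of these data known. Coverage, gap and grouping functions were tested on 200 simulated sets of 50 regions and recovered all 200. Python 3.11.15, numpy 2.4.6, pandas 2.3.3, scipy 1.17.1 and matplotlib 3.10.9 were used.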

Additional observations from a re-analysis of the deposited data

How the results depend on the processing

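Of 27 alternatives, of which 26 were planned and 1 was chosen after seeing the data, 21 left a value within its interval or a count within 1.5 times. Taking only regions wholly inside the span changed nothing by construction, since none crossed an edge, and these alternatives are counted among the 21. Leaving out regions of 249 nt gave 51 regions, 74.5% of them in the 5′ side, and those at or above the median length of the list gave 48 and 75.0%. The share in the 5′ side (70.9%) fell to 56.8% with regions at most 1 kb apart counted once, and the share in the first 106 kb of the span was 36.4%. Gaps of at most 5 kb made up 70.4%, against 33.3% at 1 kb. Groups of 2 or more regions numbered 11 at a joining distance of 5 kb and 1 at 20 kb, against 6. The rank among windows was 1 with shifted windows. The gap limit, the joining distance and the shorter stretch change these values by construction. So does counting close regions once, since all gaps of at most 1 kb lay on the 5′ side. No paired analysis was possible because the 2 replicates form 1 group and share 1 list. For that reason neither replicate could be left out in turn. Depth is unknown and could not be used to weigh regions.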

Other observations

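Each region carries a number in its name that rises along a chromosome and strand, and some numbers are not among the regions analysed here. From the first to the last EXT1 region the numbers run over 121 values, of which 55 were listed (45.5%, 36.4 to 54.8%). On the minus strand of chromosome 8 the listed share was 13.6%, and on all minus strands 16.1%. The listed share of EXT1 is built on the region number for which the locus was chosen, so its higher value is in part a result of that choice. Among the 64 windows with at least 20 regions it ranged from 24.7 to 72.3% with a median of 39.6%, and 18 were at or above EXT1. Within EXT1 it was 52.7% (40.7 to 64.4%) on the 5′ side of the midpoint and 36.4% (22.4 to 52.2%) on the 3′ side, with overlapping intervals. Both sides were counted from their first to their last listed region, so the end numbers are listed by construction. The difference between the sides was not tested. Listed and unlisted numbers together were also denser on the 5′ side, at 5.13 per 10 kb between its outermost regions against 3.77 on the 3′ side. Between the outermost EXT1 region and the next listed region beyond the gene there were 9 unlisted numbers over 243 kb on the 5′ side. On the 3′ side there were 7 over 324 kb. These stretches include 7.69 and 35.0 kb inside the gene, and the unlisted numbers have no known position. The stretches are bounded by listed regions and hold none, so their low density of numbers is in part built in. Of 54 neighbouring EXT1 pairs, 19 had successive numbers, and the largest step was 5. What the numbers stand for is not stated in the labels.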
